A study of Mus musculus with 2 samples.

Results

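The genes described here are 46 genes of transport and metabolism in the proximal tubule, the nephron segment that takes most of the filtered glucose, amino acids, phosphate and protein back into the blood. They were given by name as a module and were not chosen from the values below, but earlier results of these data were known. A peak of open chromatin was assigned to a member when its summit lay inside the gene or, failing that, when the end of a member was the nearest protein-coding gene end within 100 kb. This gave 198 of the 77529 peaks of the control library and 154 of the 61210 peaks of the Brg1 cKO library, and no peak was assigned to more than 1 member.

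Both libraries came from ATAC-seq, a transposase assay of accessible DNA, on tdTomato-positive cells sorted from embryonic mouse kidneys at E18.5, shortly before birth, with 50000 cells per reaction. One library was labelled WT control; the labels name neither the alleles of the control animals nor the Cre driver nor how many kidneys were pooled. The other was labelled Brg1cKO/cKO, a conditional deletion of Brg1, which is the ATPase Smarca4 of the BAF chromatin remodelling complex. The cKO library carries the cell type label of the Wnt4 lineage, and that the control library holds the same lineage rests on its title and the shared protocol. With a single library on each side, genotypes could not be compared against a spread between replicates and were not tested; intervals are 95% and cover counting error only.

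Proximal tubule cells take up filtered protein through the receptors megalin and cubilin and take up solutes through sodium-coupled carriers on a brush border of microvilli. Many of these genes are known as targets of the HNF4 transcription factors. Their expression begins in the late embryo and rises after birth, so that E18.5 is an early stage for this programme. Wnt4 is switched on as mesenchyme turns into nephron epithelium, and its lineage includes the cells that form this segment.

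The peak lists hold no read counts, so the depth of either library is unknown, and a place without a called peak may still be open. A peak was called found when it overlapped a peak of the other library by at least 1 bp, and a control peak found in the cKO library is also called kept. Over all peaks, 25.9% of control peaks and 5.92% of cKO peaks were not found in the other library. Of 9 marker genes of the nephron epithelium, 8 had a peak within 1000 bp of a gene end in both libraries, and the ninth, Cdh6, had one at an annotated start. Genes of other cells also had end peaks: all 4 collecting duct, all 4 stromal and all 3 endothelial markers in both libraries, 1 of 3 erythroid markers in both, and 2 of 3 immune markers in the control alone. Such end peaks are common: 67.6% of all protein-coding genes had one in the control, 66.2% in the cKO and 1.68% in the control alone. The marker lists are short, and a peak at such a gene does not show that its cell type was present. Peaks at these genes cannot be turned into shares of cells, and the part of other cells in the values below was not tested.

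The sequence before the start of 4 members shows the range of promoters in this module. RefSeq's promoter table (GRCm38.p6) held 41 of the 46 genes; Slc5a2, Slc5a12, Slc6a18, Slc13a1 and Slc47a1 were not matched. The 250 bases before an annotated start are printed 5′ to 3′, and capitals mark CpG pairs. Lrp2 and Slc4a4 had a strong peak there in both libraries, while the start peaks of Cubn and Pck1 were called in the control alone.
Lrp2, chr2:69586030-69586279, minus strand: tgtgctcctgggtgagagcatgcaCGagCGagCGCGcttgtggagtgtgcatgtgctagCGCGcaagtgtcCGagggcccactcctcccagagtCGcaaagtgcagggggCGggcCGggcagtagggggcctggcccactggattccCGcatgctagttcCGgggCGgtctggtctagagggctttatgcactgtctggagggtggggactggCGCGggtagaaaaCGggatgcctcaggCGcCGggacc
Slc4a4, chr5:88887010-88887259, plus strand: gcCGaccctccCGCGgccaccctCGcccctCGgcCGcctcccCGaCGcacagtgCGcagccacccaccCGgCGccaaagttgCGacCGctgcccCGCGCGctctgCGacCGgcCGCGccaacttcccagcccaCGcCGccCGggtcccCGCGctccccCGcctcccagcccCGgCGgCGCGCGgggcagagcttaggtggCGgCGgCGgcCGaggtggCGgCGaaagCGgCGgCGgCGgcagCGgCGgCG
Cubn, chr2:13491877-13492126, minus strand: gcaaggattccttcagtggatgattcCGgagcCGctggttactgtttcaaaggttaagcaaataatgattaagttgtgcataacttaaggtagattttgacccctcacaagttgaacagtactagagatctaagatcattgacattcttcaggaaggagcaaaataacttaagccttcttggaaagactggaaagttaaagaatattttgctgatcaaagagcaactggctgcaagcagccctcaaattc
Pck1, chr2:173152823-173153072, plus strand: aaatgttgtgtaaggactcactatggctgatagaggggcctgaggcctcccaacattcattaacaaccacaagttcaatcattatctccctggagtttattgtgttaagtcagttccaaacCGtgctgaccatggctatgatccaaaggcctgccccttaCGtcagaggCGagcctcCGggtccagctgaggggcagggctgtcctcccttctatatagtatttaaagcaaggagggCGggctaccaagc
These promoters hold 18 CpG for Lrp2 and 44 for Slc4a4, against 2 for Cubn and 5 for Pck1.

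The 41 genes with an annotated start were sorted by where a start peak was called. Both libraries had a peak within 1000 bp of a start at 22 genes, the control alone at 5, the cKO alone at none, and neither at 14. In the control 27 of the 41 members thus had a start peak, where 67.5% of 17491 protein-coding genes had one. In the cKO library 22 did, where the figure for all genes was 66.3%. A start peak in the control alone was called at 1.38% of all genes and in the cKO alone at 0.189%.

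The 5 members with a start peak in the control alone were Cubn, Slc3a1, Slc5a10, Slc22a8 and Pck1, and none of these peaks was among the stronger ones of the list. Strength was ranked by the peak caller's -log10 p within its own list and divided into 10 classes of equal size. These run from class 1, the weakest, to class 10. Classes and -log10 p values depend on the list, so those of both libraries are printed side by side with no comparison. The start peaks lay in class 2 at Cubn and Slc22a8, class 3 at Pck1, class 4 at Slc3a1 and class 5 at Slc5a10. The median over all control peaks at a protein-coding start was class 9. When the 33 control peaks at the members' starts were read against all start peaks of equal class, 27 were found and 28.7 were expected, a difference of -5.22 percentage points (-14.7 to 4.21). Read against peaks of equal strength, the shortfall at starts was within counting error.

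CpG content went with these groups of genes. The median number of CpG in the 250 bases was 15.5 at the 22 genes with a start peak in both libraries, 3 at the 5 with one in the control alone and 2 at the 14 with none. Over all protein-coding genes the medians of the same groups were 17, 4 and 2. Of the 22 genes, 15 had 10 or more CpG, as did 0 of the 5 and 1 of the 14. That 1 is Gatm, which makes the creatine precursor guanidinoacetate; it had 17 CpG and no assigned peak in either library. At the other edge Slc6a19, the main carrier for neutral amino acids, had 3 CpG and a start peak in class 9 of the control list and class 8 of the cKO list.

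**Figure D1:**
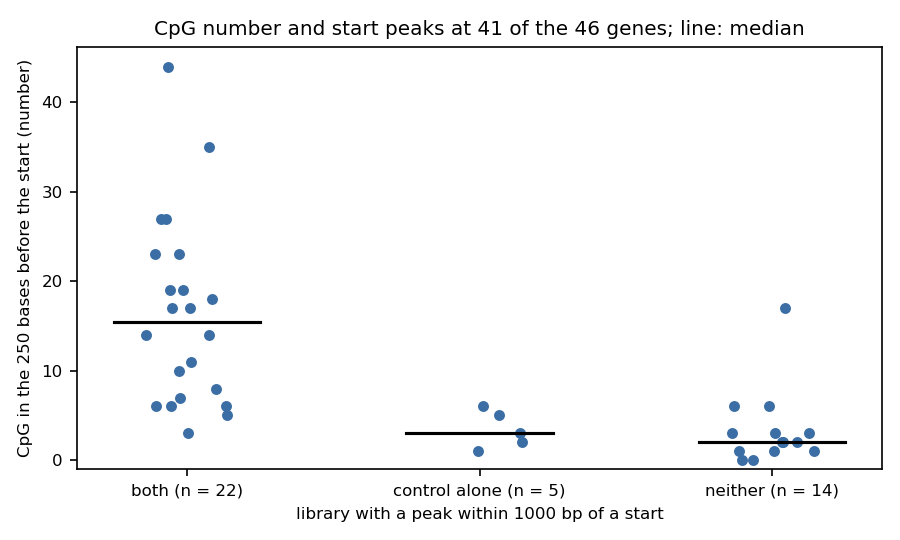
Number of CpG pairs in the 250 bases before the start (y axis) for the 41 members with an annotated start, 1 point per gene at its richest start, by the library with a peak within 1000 bp of a start (x axis); lines are medians of 15.5, 3 and 2. The 5 genes with a start peak in the control alone have between 1 and 6 CpG. This is within the range of the genes with no start peak (0 to 17) and overlaps that of the genes with one in both libraries (3 to 44).

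An HNF4-type motif, a TATA box and an AP-1 motif were each counted in these windows, on both strands and with overlaps allowed. The HNF4-type letters CAAAGTCCA occurred at 1 of the 41 members, Slc3a1. That is 1 of the members' 57 promoters (1.75%), against 0.384% of all 32851 promoters in the table. A TATA box, searched as TATAAA, occurred at 6 members, Acsm2, Enpep, Ggt1, Kap, Miox and Slc3a1, that is in 10.5% of the members' 57 promoters and 12.4% of all. The AP-1 letters, TGANTCA, occurred at Mme and Slc3a1, in 3.51% of the members' promoters and 6.75% of all. A match is a description of letters and not a site of binding.

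Slc3a1 had the most matches, and Kap and Miox are shown as TATA promoters with no peak in either library. Capitals mark the motif matches. In Slc3a1 the HNF4-type match begins 39 bases before the start, the AP-1 match 140 bases before it, and TATA matches 124, 20 and 18 bases before it, the last 2 overlapping each other. In Kap the TATA match begins 31 bases and in Miox 40 bases before the start.
Slc3a1, chr17:85028097-85028346, plus strand: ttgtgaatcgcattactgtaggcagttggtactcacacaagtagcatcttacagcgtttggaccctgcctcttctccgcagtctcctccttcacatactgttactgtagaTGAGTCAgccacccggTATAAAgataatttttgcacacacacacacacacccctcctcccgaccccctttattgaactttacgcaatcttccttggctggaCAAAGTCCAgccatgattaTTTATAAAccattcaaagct
Kap, chr6:133853668-133853917, minus strand: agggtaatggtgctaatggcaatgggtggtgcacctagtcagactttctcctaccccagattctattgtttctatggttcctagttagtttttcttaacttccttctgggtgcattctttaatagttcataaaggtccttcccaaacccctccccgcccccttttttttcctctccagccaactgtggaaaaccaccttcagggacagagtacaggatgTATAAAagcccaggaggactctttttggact
Miox, chr15:89334223-89334472, plus strand: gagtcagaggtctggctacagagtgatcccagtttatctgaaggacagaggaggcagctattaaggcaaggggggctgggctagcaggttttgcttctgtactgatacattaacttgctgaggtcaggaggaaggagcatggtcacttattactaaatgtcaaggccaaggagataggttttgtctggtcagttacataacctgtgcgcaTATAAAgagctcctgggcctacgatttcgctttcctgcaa
The control peak near the Slc3a1 start did not cover this window: it lay at chromosome 17, 85027271 to 85027596, with its summit 0.865 kb before the start.

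Which members were open at all was then counted over both ends of the genes. A peak within 1000 bp of an annotated gene end was called at 26 of 46 members in the control, against 67.6% of protein-coding genes, and at 23 in the cKO, against 66.2%. These 23 had one in both libraries. The control alone had one at Cubn, Slc5a10 and Slc3a1, where 1.68% of all genes had a control peak alone, and the cKO alone at none, against 0.292% of all genes. At 3 members, Slc34a1, Slc47a1 and Ggt1, an end peak lay nearer to the neighbouring gene (Pfn3, Slc47a2 and Lrrc75b), and at Slc34a1 it was the only one. At Dab2, Slc7a7, Slc4a4 and Slc9a3 the opposite held: no peak lay at an outer gene end, but each had a peak in both libraries at a start annotated inside the gene.

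Any assigned peak was present at 38 of 46 members in the control and at 37 in the cKO, where 76.3% and 74.5% of protein-coding genes had one. Members with a peak had a median of 4 control and 3 cKO peaks, against 3 and 2 for all protein-coding genes with a peak. The 8 members with no peak in either library were Slc5a2 (chromosome 7, 128265683 to 128272430), which takes up most filtered glucose, the organic anion and urate carriers Slc22a6 and Slc22a12, the amino acid carrier Slc6a18, the phosphate carrier Slc17a1, and Gatm, Miox and Kap. Miox breaks down inositol, and Kap encodes an androgen-regulated protein of the mouse kidney. These genes are short, between 2.54 kb for Miox and 28.1 kb for Slc17a1, and the part of gene length was not tested. Slc17a3, a neighbour of Slc17a1, had 1 control peak (chromosome 13, 23833064 to 23833511), in class 4, and no cKO peak.

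**Figure D2:**
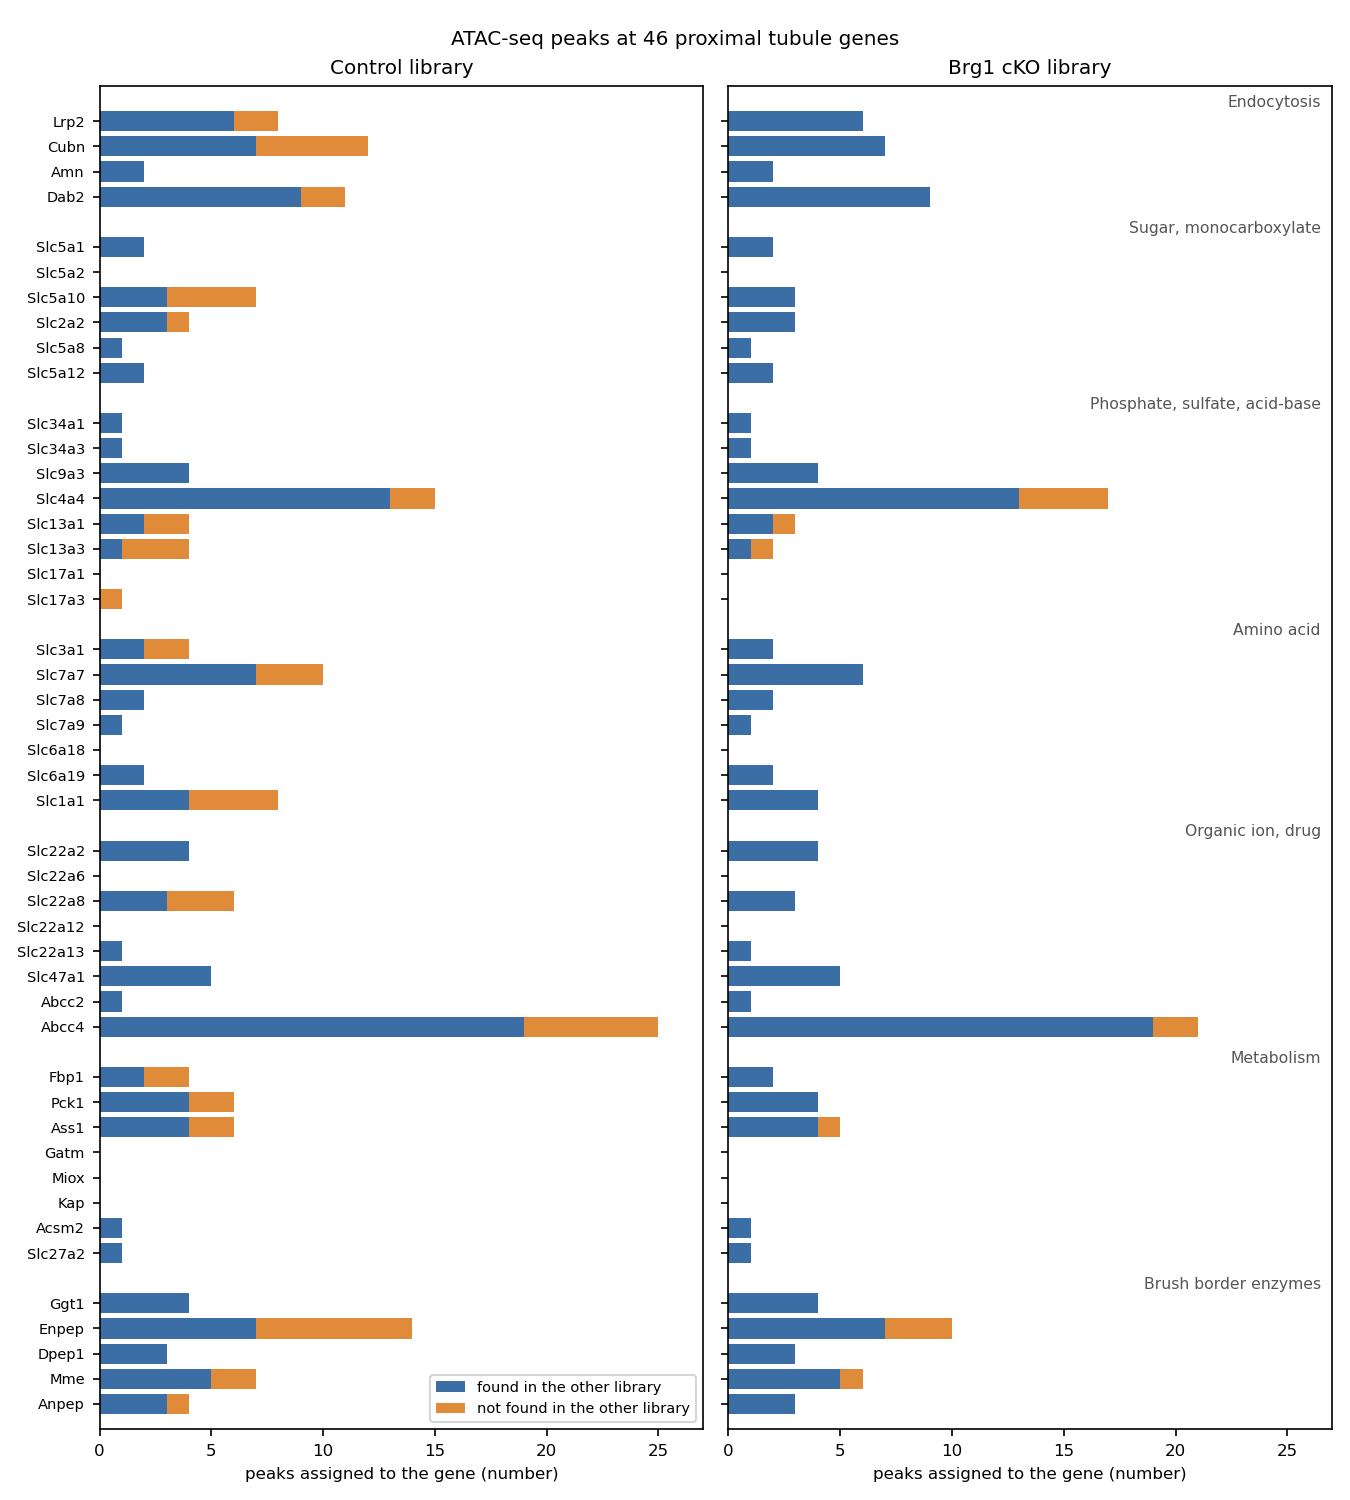
Number of peaks assigned to each of the 46 genes (x axis), grouped by role, in the control library (left) and the Brg1 cKO library (right); blue peaks overlap a peak of the other library and orange peaks do not. Orange marks 56 of 198 peaks on the left and 13 of 154 on the right, and 8 genes have no bar in either panel. The contrast follows in part from the longer control list. With lists of equal length 77.3% of control and 76.6% of cKO peaks were found, a near equality that matching of single peaks brings about by itself.

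The share of the members' control peaks found in the cKO library lay within counting error of that of equal peaks. Of the 198, 142 were found (71.7%, 64.9 to 77.9%) and 56 were not, where 25.9% of all control peaks were not found. From all control peaks of equal strength class and equal position (within 1000 bp of a protein-coding gene end or farther) 71.5% was expected, a difference of 0.168 points (-5.26 to 5.59). Per gene, the median share found was 70.7% over the 24 members with at least 3 control peaks, against 75% over 8769 genes. Peaks of one gene share their surroundings, so the intervals may be too narrow.

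In the other direction 141 of 154 cKO peaks were found in the control list (91.6%, 86.0 to 95.4%) and 13 were not, where 5.92% of all cKO peaks were not found. Equal peaks gave 93.0%, a difference of -1.48 points (-5.26 to 2.31). The control list is longer, and at members 0 control peaks and 1 cKO peak overlapped 2 or more peaks of the other list. A lower share for control peaks therefore follows in part from the lengths of the lists. With the control list cut to the length of the cKO list by significance, 119 of 154 control peaks (77.3%, 69.8 to 83.6%) and 118 of 154 cKO peaks (76.6%, 69.1 to 83.1%) were found. Matching of single peaks between equal lists gives near-equal shares by itself, so these values say nothing about the genotypes. Over the 21 members with at least 3 cKO peaks the median share was 100%, as it was for 7432 genes.

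Strength went with the outcome. Members' control peaks in classes 1 and 2 were found in 20 of 40 cases, those in classes 3 and 4 in 25 of 50, those in classes 5 and 6 in 33 of 42, those in classes 7 and 8 in 43 of 45, and those in classes 9 and 10 in all 21. All peaks of the library gave 38.5%, 56.3%, 81.1%, 94.8% and 99.9%, each within the interval of the members' share. The unmatched control peaks at members had a median class of 3, against 6 for the matched ones. Where a peak was found, the median shift of its summit between libraries was 12 bp, and 131 of 142 shifts were at most 200 bp. Overlap itself limits this shift, and no value for all matched peaks is given beside it.

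**Figure D3:**
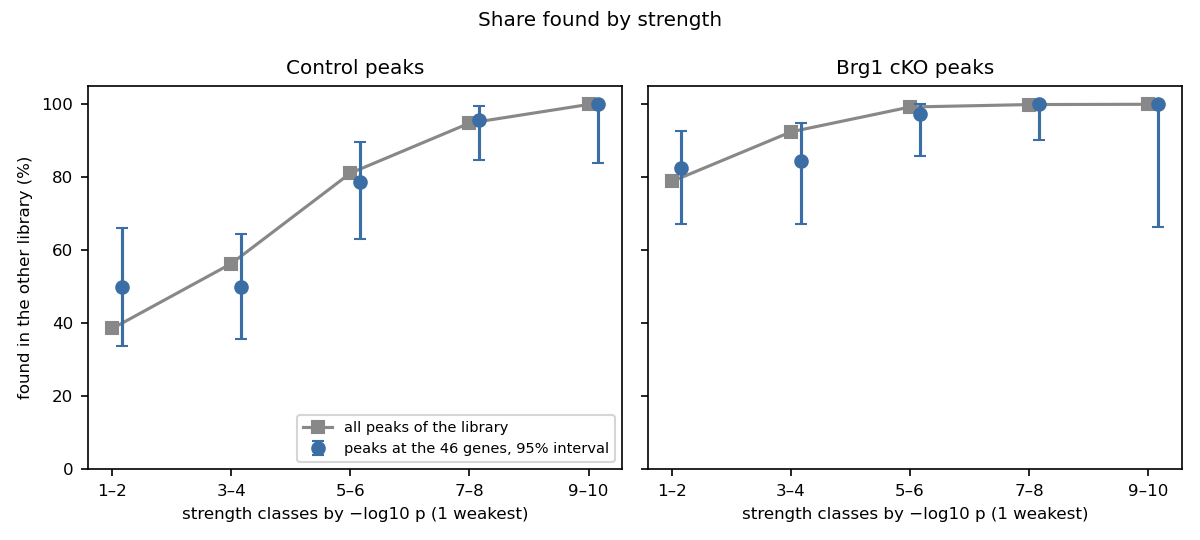
Share of peaks found in the other library (y axis, %) by strength class of -log10 p within the list (x axis), for the control (left) and Brg1 cKO (right) libraries; points with exact binomial 95% intervals are peaks at the 46 genes and squares are all peaks. The share at the members goes from 50% in the weakest control peaks to 100% in the strongest, and each square lies within the members' interval.

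Endocytosis genes were open in both libraries. Control peaks were found in 24 of 33 cases (72.7%, 54.5 to 86.7%, with 65.9% expected). All 24 cKO peaks were found, with 91.7% expected. Lrp2, which encodes megalin, lies at chromosome 2, 69424335 to 69586029, and its start peak (69585146 to 69586499) had a -log10 p of 8.35 in the control list and 8.01 in the cKO list. Of its 8 control peaks 6 were found, 5.26 being expected. The unmatched ones, in classes 3 and 2, lay 140 kb after and 26.4 kb before the start. All 6 cKO peaks at Lrp2 were found.

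Cubn, its partner receptor cubilin, lies at chromosome 2, 13276338 to 13491876, and differed in layout. Its strongest peak was intragenic, 119.5 kb after the start (13371417 to 13373131), with a -log10 p of 8.27 in the control list and 7.20 in the cKO one. The start peak (13491609 to 13492178) reached only 4.53 in the control, and the nearest cKO peak lay 51.6 kb away. Another control peak not found in the cKO, 28.5 kb after the start (13463043 to 13463682), was in class 6. In all 7 of 12 control peaks were found, 7.77 being expected, and all 7 cKO peaks were found, each of them more than 78 kb from the start.

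The other members of the receptor complex kept nearly all peaks. Dab2, the clathrin adaptor of megalin, had its strongest peak at an internal start (chromosome 15, 6385925 to 6388554), with 10.3 in the control list and 9.42 in the cKO one. There 9 of 11 control peaks were found, 6.78 being expected, and all 9 cKO peaks. Both peaks of Amn, which carries cubilin to the surface, were found in each direction.

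Sugar and monocarboxylate carriers kept 11 of 16 control peaks (68.8%, 41.3 to 89.0%, with 74.2% expected). All 11 cKO peaks were found, with 95.8% expected. Slc5a10, a carrier for mannose and fructose, accounted for 4 of the 5 unmatched peaks: 3 of 7 control peaks were found, 5.87 being expected. Its start peak (chromosome 11, 61719322 to 61720272) had a -log10 p of 5.39 in the control list. Slc5a10 overlaps Fam83g, and 3 of its 7 control peaks, 2 of them unmatched, had a summit inside that gene, so they cannot be ascribed to either. The glucose carriers Slc5a1 and Slc2a2 kept 2 of 2 and 3 of 4, and the monocarboxylate carriers Slc5a8 and Slc5a12 kept 1 of 1 and 2 of 2. The start peaks of Slc5a1 and Slc5a8 were weak in both libraries, in classes 4 and 3 of the control and class 2 of the cKO list.

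Carriers of phosphate, sulfate, dicarboxylates, bicarbonate and protons kept 22 of 30 control peaks (73.3%, 54.1 to 87.7%; 68.2% expected). Of their 28 cKO peaks 22 were found (78.6%, 59.0 to 91.7%), 13.8 points below the 92.4% of equal peaks (-23.2 to -4.44). Of the 14 intervals drawn for the 7 roles in both directions, this one alone left out 0. Slc4a4 held 4 of the 6 unmatched cKO peaks, Slc13a1 1 and Slc13a3 1. The interval included 0 when an overlap of 50% was required (-6.83, -19.4 to 5.71) and when only the nearest gene end counted (-8.30, -19.5 to 2.91), and in the more significant 50% of each list, where 8 of 8 peaks were found, the difference turned to 6.45 points. Without Slc4a4 it was -13.4 points over 11 cKO peaks, and the difference for control peaks turned from 5.09 to -14.2 points over 15 peaks.

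Slc4a4 encodes the basolateral sodium bicarbonate cotransporter and lies at chromosome 5, 88793858 to 89239656. It was the only member with more cKO than control peaks, 17 against 15. At its internal start both libraries had a strong peak (88886082 to 88888613 in the control), with 9.50 in the control list and 9.001 in the cKO one. In the control 13 of 15 peaks were found, 9.35 being expected. Of the 4 cKO peaks without a control counterpart 3 lay between 31.4 and 52.1 kb after that start: 88918338 to 88918880, 88933531 to 88934283 and 88939178 to 88939703, with -log10 p of 4.77, 5.32 and 4.80. The fourth (89260034 to 89261168, 4.49) lay beyond the end of the gene. All 4 were in classes 2 to 5 of the cKO list.

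The sodium phosphate cotransporters Slc34a1 and Slc34a3 each had 1 assigned peak. Slc34a1, the main renal phosphate cotransporter, had 1 intragenic peak, 6.02 kb after its start (chromosome 13, 55405115 to 55406039), with 8.17 in the control list and 8.04 in the cKO one, and no start peak in either. Slc34a3 had 1 peak beside its 3′ end (chromosome 2, 25228092 to 25229260), with 10.2 in the control list and 9.48 in the cKO one, and its 250 promoter bases overlapped no peak. The proton exchanger gene Slc9a3 kept all 4 control peaks, and its 4 cKO peaks were all found. The sulfate carrier gene Slc13a1 kept 2 of 4. Slc13a3, the dicarboxylate carrier, kept only the start peak of its 4 control peaks, 2.66 being expected. That start peak had 6.98 in the control list and 6.23 in the cKO one.

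**Figure D4:**
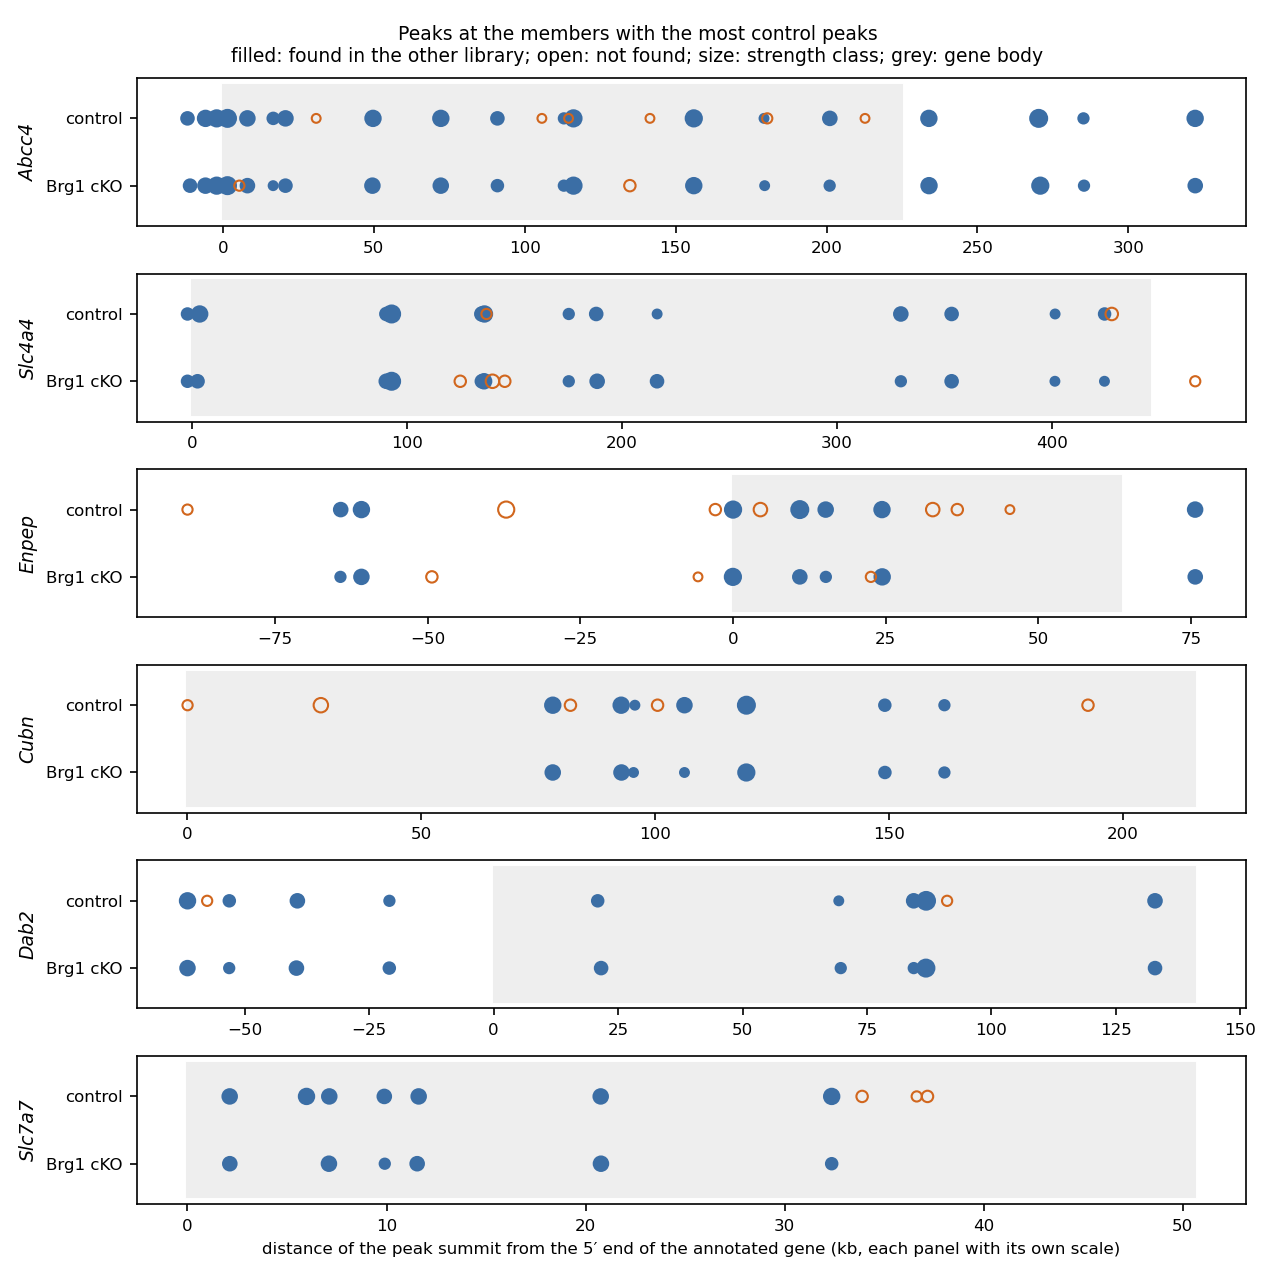
Position of peak summits at the 6 members with the most control peaks and a known strand (x axis, kb from the 5′ end of the annotated gene, grey gene body, each panel with its own scale), in the control and Brg1 cKO libraries; filled points are found in the other library, open points are not, and larger points lie in stronger classes. Filled points stand at matching places in both rows by definition. Cubn has no cKO point near its 5′ end, and 3 open cKO points of Slc4a4 lie close together.

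Amino acid carriers kept 18 of 27 control peaks (66.7%, 46.04 to 83.5%, with 72.0% expected). All 17 cKO peaks were found, with 93.3% expected. Slc3a1 and Slc7a9 encode the subunits of the cystine carrier. Slc3a1 (chromosome 17, 85028347 to 85064241) kept 2 of 4, with every peak in class 4 or below. The only peak of Slc7a9 lay at its start and was found, but it ran from 35447406 to 35449261 on chromosome 7 in the control (6.95) and from 35448118 to 35448791 in the cKO library (4.72), so that it covered the promoter bases in the control alone. Slc1a1, a glutamate carrier, kept 4 of 8 control peaks, 5.52 being expected; its start peak had 8.52 in the control list and 7.59 in the cKO one. Slc7a7, a carrier for cationic amino acids, kept 7 of 10. Its 3 unmatched peaks were neighbours within the gene in classes 2 and 3. Slc7a8 and Slc6a19 kept both of their control peaks.

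Organic ion and drug carriers kept 33 of 42 control peaks (78.6%, 63.2 to 89.7%, with 69.7% expected). Of 35 cKO peaks 33 were found (94.3%, with 93.7% expected). Abcc4, an efflux pump for organic anions and cyclic nucleotides (chromosome 14, 118482692 to 118707856), had the most peaks of all members. Of these 19 of 25 control and 19 of 21 cKO peaks were found, 17.0 and 19.4 being expected. Its start peak (118705259 to 118706971) had 10.0 in the control list and 9.42 in the cKO one, and all 6 unmatched control peaks lay in classes 1 and 2. Among these 6, a peak lay 0.033 kb from a second annotated start (118676737 to 118677193). The organic cation carrier Slc22a2 kept all 4 control peaks and Slc47a1, the exchanger of organic cations and protons, all 5. The strongest peak of Slc47a1 lay 29.5 kb from the gene (chromosome 11, 61407454 to 61409058), with 10.7 in the control list and 9.92 in the cKO one. Slc22a8, an organic anion carrier, kept 3 of 6; its start peak (chromosome 19, 8592817 to 8593255) had 4.44 in the control list, and the 3 peaks found all lay before the gene. Abcc2 and Slc22a13 each had 1 peak, found in both directions.

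Metabolic genes kept 12 of 18 control peaks (66.7%, 40.99 to 86.7%, with 77.2% expected). Of 13 cKO peaks 12 were found (92.3%, with 93.7% expected). Pck1, which catalyses the committed step of gluconeogenesis (chromosome 2, 173153073 to 173159274), kept 4 of 6. Its strong peaks lay at and behind the 3′ end in both libraries: 173159336 to 173160285 with 8.45 in the control list and 8.03 in the cKO one, 173170508 to 173172653 with 8.69 and 9.12, and 173172919 to 173174913 with 8.63 and 8.10. Its start peak had 4.76 in the control list, and the nearest cKO peak lay 6.22 kb away. Fbp1, of the same pathway, kept 2 of 4, 3.48 being expected. The other 2, a neighbouring pair behind its 3′ end, had no counterpart, and 1 of them was in class 7 with 6.35. Ass1, of arginine synthesis, kept 4 of 6, with a start peak of 9.11 in the control list and 8.31 in the cKO one. The single peaks of Slc27a2, a fatty acid carrier, and of Acsm2, an acyl-CoA synthetase, were found in both directions.

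Brush border enzymes were the only role in which every member had a start peak in both libraries, 5 of 5. Control peaks were found in 22 of 32 cases (68.8%, 50.0 to 83.9%, with 78.0% expected). Of 26 cKO peaks 22 were found (84.6%, with 92.4% expected), a difference of -7.79 points (-17.3 to 1.74). Enpep, the aminopeptidase that cleaves angiotensin II (chromosome 3, 129269177 to 129332749), kept 7 of 14, 10.5 being expected, and had 7 of 10 cKO peaks found. Its unmatched control peaks included the most significant one of the module, 37.1 kb before the start (129369372 to 129370137), with 6.96, in class 8. The start peak of Enpep had 7.63 in the control list and 7.04 in the cKO one. Mme, which encodes neprilysin, kept 5 of 7, with a start peak in class 10 of the control list (10.3) and class 9 of the cKO list (9.27). Ggt1 and Dpep1, enzymes of glutathione breakdown, kept all 4 and all 3, and Anpep 3 of 4.

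**Figure D5:**
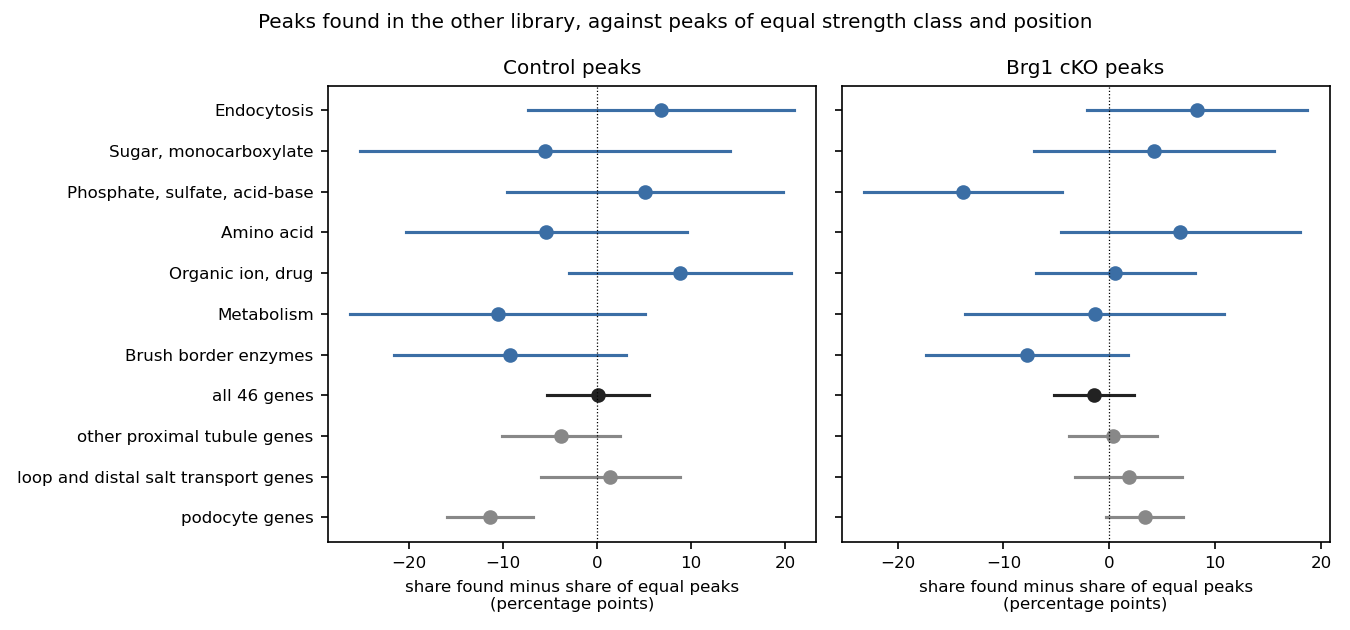
Share of peaks found in the other library minus the share of all peaks of equal strength class and position (x axis, percentage points, with 95% intervals of counting error), for the 7 roles, all 46 genes and 3 comparison lists, for control peaks (left) and Brg1 cKO peaks (right). The interval of all 46 genes includes 0 in both panels; the control peaks of podocyte genes and the cKO peaks of phosphate, sulfate and acid-base carriers have intervals below 0.

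Other genes of the segment were counted in the same way. Of 49 further proximal tubule genes, 39 had an assigned control peak, against 76.3% of all protein-coding genes. A control peak at a gene end was called at 24 of them (49.0%), against 67.6% of all protein-coding genes. Their 127 control peaks were found in 91 cases (71.7%, 63.0 to 79.3%), -3.78 points from equal peaks (-10.0 to 2.48). Their 99 cKO peaks were found in 94 cases (94.9%, with 94.6% expected). Loop and distal salt transport genes kept 79 of 106 control peaks, 1.42 points above equal peaks (-5.94 to 8.79). Podocyte genes kept 164 of 287, -11.4 points from equal peaks (-15.9 to -6.83). A podocyte list had been seen to stand low in these libraries before, so this is not independent support, and the difference between lists was not tested.

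By position, every difference from equal peaks was within counting error. Members' peaks inside the gene were found in 94 of 133 cases in the control (0.514 points from equal peaks, -6.22 to 7.25) and those outside it in 48 of 65 (-0.540 points, -9.65 to 8.57). Within 1000 bp of a gene end 27 of 32 were found (-5.70 points, -14.6 to 3.20), and farther away 115 of 166 (1.30 points, -4.94 to 7.54). The farthest peak assigned from outside a gene lay 96.9 kb from Abcc4, and the nearest one left out lay 110.9 kb from Slc5a12; both were found in the cKO list.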

How the data were processed

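The deposited files were 1 peak list per library in narrowPeak form. Per the submitters' processing notes, Trim Galore, SAMtools and Genrich were used on mm10; no source names the aligner, settings, versions or treatment of duplicates. The deposited score per peak is capped at 1000 and was not used. The authors' signal column holds an area per peak (minimum 200.02 for the control, 200.01 for the cKO). Columns of -log10 p and -log10 q were deposited too, and -log10 q reached down to 1.42 (control) and 1.35 (cKO). All depend on depth, so they only ranked peaks within a list; -log10 p values of both lists are printed side by side as each list gives them, with no comparison.

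Genes and promoters came from RefSeq tables of GRCm38.p6, the assembly of mm10, with 21883 protein-coding genes; coordinates are 1-based. Overlap, assignment, strength classes and exact Clopper-Pearson intervals were computed in Python 3.11.15 with SciPy 1.17.1. The expected share is the mean share of all peaks of the same class and position, and its difference has a normal-approximation interval. The calculation was tested on simulated data in which each peak was drawn independently. That simulation cannot show how the intervals hold for peaks of one gene that share their surroundings. The start window, CpG counts and printed promoters were chosen with the values in view. The members and lists were chosen with earlier results of these data known. Full values were planned for Lrp2, Cubn, Slc34a1 and Slc5a2, the 8 members with most control peaks, and those with an end peak in 1 library alone. They were also planned for members with 3 or more control peaks all or none of which were found. For some of these, such as Slc22a2, Slc9a3, Ggt1 and Dpep1, only the counts found are printed. Other members' peaks were added after their values were seen. A marker list and a searched motif are not reported here.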

Additional observations from a re-analysis of the deposited data

How the results depend on the processing

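Depth and replication limit these values: with 1 library per genotype, no read counts and 198 control peaks, differences of about 5 points between the members and equal peaks were not detectable. The difference for control peaks lay between -3.69 (lists of equal length) and 1.83 points (overlap of 50% of both peaks) under the other settings, except in the more significant 50% of each list, where it was 6.73 points (-1.47 to 14.9). For cKO peaks that setting gave a share of 97.0% and a difference of 3.74 points. With lists of equal length the cKO share was 76.6% and the difference -4.68 points. The number of members with a start peak in the control alone was 5 within 250 bp, 4 of them the same genes. It was 3 within 5000 bp and 3 with lists of equal length. In the more significant 50% of each list it was 4. None of these could be the same genes, because all 5 start peaks lay in class 5 or below, which that setting removes. These settings for the start count, the peaks not shared with another gene and the setting without Slc4a4 were added after seeing the data. Counts of members with an end peak or any peak stayed within 1.5 times of the values reported under every setting tried. Of the settings tried for the roles, 2 of 93 for control and 4 of 93 for cKO peaks left the interval reported. For single members these were 18 of 250 and 12 of 243. Intervals over few peaks are wide, from -25.1 to 14.1 points for control peaks of the sugar role. Staying inside them is therefore little evidence of stability. The causes were not tested. No paired analysis was possible because each genotype had 1 library.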
